A study of Homo sapiens with 24 samples.

Results

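The genes described here encode the DREAM complex and the complexes of MuvB with B-MYB and FOXM1, which share the MuvB core. They are the 10 genes named LIN9, LIN37, LIN52, LIN54, RBL1, RBL2, E2F4, TFDP1, MYBL2 and FOXM1, chosen by name out of 57820 genes in the count files. The 10 names occur on 11 rows, because an antisense transcript of RBL1 carries the same name. That row was left out. All 10 genes passed the filter on low counts in every comparison.

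RNA came from 24 libraries that form 8 groups, each with 3 biological replicates. The cells were U2OS, a human osteosarcoma line, and AID-DIvA U2OS, a U2OS derivative in which a restriction enzyme can be switched on to cut DNA at known sites. Each line was used as WT and as ID3-knockout (KO), and each genotype was either untreated or exposed to mocetinostat, an inhibitor of class I histone deacetylases. AID-DIvA cells were treated for 24 h and then kept for 24 h in drug-free medium (recovered), whereas U2OS cells were collected at the end of treatment, a stage inferred from the series description and the methods. The line and the stage therefore cannot be told apart, and the recovered cells were set against untreated cells of the same line. For AID-DIvA the treatment field of the labels goes against the sample titles. The titles were followed. Under the field every sign of an AID-DIvA treatment comparison and of the AID-DIvA interaction would be reversed. The AID-DIvA groups called untreated would then be the recovered ones, and the differences between stages would change as well. The making of the KO clones and the dose are not given in the labels.

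In resting cells MuvB (LIN9, LIN37, LIN52, LIN54 and RBBP4) binds a pocket protein, p130 (RBL2) or p107 (RBL1), and a dimer of E2F4 with DP1 (TFDP1). This assembly, DREAM, holds cell cycle genes silent. When cells enter the cycle the pocket protein and E2F4 leave, MuvB binds B-MYB (MYBL2) in S phase and then FOXM1, and the same core now switches on genes of G2 and mitosis. DREAM reaches early genes through E2F sites and late genes through the CHR element, which LIN54 contacts. The CDK inhibitor p21 (CDKN1A) keeps the pocket proteins in their binding form.

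Promoter windows of RefSeq (build GRCh38.p14) run from 250 bases before to 50 bases after a gene's start and were found for 9 of the 10 genes, in 14 entries. FOXM1 had no entry. They were searched on both strands for the CHR letters TTTGAA, for the E2F letters TTTCCCGC, TTTCGCGC, TTTGCCGC and TTTGGCGC, and for the shorter E2F core GGCGGGA, which can overlap the first of these. The CHR letters occurred in a window of 4 of the 9 genes, the longer E2F letters in 3 and the core in 7. Of all 35116 windows in the table, 15.2% held the CHR letters, 3.31% the longer E2F letters and 15.4% the core. A gene with several entries counted if any of them matched, and LIN9, LIN37 and RBL2 matched in only some of theirs. The counts per gene and the shares per window are therefore not like for like. The 250 bases before the start are shown for MYBL2, RBL1, LIN52 and LIN54, because they place such letters close to the start of an activator, a pocket protein and the CHR-contacting and pocket-binding subunits of MuvB. Matched letters are in capitals.
MYBL2 (chr20:43666864-43667113, plus strand): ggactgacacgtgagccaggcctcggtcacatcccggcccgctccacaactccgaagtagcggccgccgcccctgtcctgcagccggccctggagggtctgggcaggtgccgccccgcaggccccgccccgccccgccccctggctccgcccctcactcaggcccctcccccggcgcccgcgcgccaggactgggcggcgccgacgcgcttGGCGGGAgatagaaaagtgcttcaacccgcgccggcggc
RBL1 (chr20:37095998-37096247, minus strand): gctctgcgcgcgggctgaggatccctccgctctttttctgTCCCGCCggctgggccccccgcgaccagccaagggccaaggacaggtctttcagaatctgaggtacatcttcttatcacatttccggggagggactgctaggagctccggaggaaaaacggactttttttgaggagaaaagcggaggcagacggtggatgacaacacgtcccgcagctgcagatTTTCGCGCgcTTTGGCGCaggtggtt
LIN52 (chr14:74084706-74084955, plus strand): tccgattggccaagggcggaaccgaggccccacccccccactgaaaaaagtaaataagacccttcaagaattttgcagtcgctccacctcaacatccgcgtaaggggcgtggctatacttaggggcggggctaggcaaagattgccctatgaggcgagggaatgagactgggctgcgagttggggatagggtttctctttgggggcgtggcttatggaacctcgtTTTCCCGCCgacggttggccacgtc
LIN54 (chr4:83010824-83011073, minus strand): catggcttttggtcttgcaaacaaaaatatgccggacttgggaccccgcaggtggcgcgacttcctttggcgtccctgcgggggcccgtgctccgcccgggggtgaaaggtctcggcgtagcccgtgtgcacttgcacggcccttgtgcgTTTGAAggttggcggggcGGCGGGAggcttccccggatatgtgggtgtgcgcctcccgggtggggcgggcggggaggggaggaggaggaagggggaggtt
The MYBL2 window held the E2F core at position -39 from the start, and RBL1 held 2 of the longer E2F matches next to its start. LIN52 held a longer match overlapping a core. The LIN54 window held the CHR letters at position -100 and the core at -82. These are matches of letters only, and no binding was measured.

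Libraries held between 37878751 and 76906266 counted fragments. The library labelled WT U2OS untreated replicate 1 stood apart, differing from replicates 2 and 3 by a chi-square of 103 and 91.1 per gene, respectively, against 27.3 or less in every other pair of replicates. Calls of members and counts of target genes that change without it are given both ways. ID3 RNA was lower in untreated KO than untreated WT cells, at 34.8 ± 3.61 against 50.4 ± 2.20 CPM in AID-DIvA (mean ± SD, n = 3) and 30.6 ± 1.53 against 62.4 ± 15.9 CPM in U2OS, but was not absent. Of the mesenchymal markers, VIM, COL1A1, SPARC, RUNX2 and FN1 were present with median levels of 360, 453, 768, 9.30 and 98.1 TPM (a level per transcript length), and COL1A2 was near 0 with 0.114 TPM. The blood marker PTPRC had a median of 0.0767, the endothelial CDH5 0.167, the muscle fibre MYH1 0.849 and the epithelial CDH1 0.300 TPM, while the epithelial EPCAM had 8.002 TPM.

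Per transcript length, the activators were the most abundant members. MYBL2 had a median of 755 TPM over the 24 libraries (615 to 951), above FOXM1 with 259 (169 to 424) without overlap. FOXM1 overlapped TFDP1, at 184 TPM (142 to 251). E2F4 followed at 98.1 TPM (85.0 to 141). The pocket proteins and MuvB subunits were lower, and each overlapped the next: RBL2 at 26.7, LIN52 at 26.6, LIN54 at 21.1, RBL1 at 18.5 and LIN9 at 14.7 TPM. LIN37 was the lowest at 4.25 TPM (2.87 to 6.17) and overlapped none of the others. It lies within another annotated gene, whose effect on this level was not tested.

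The levels below are CPM, fragment counts relative to the library total, scaled over the 24 libraries, and serve to compare 1 gene between groups. Over the 8 group means, LIN9 spanned 2.66-fold, FOXM1 2.60-fold, RBL1 2.20-fold and LIN52 2.11-fold, while MYBL2 spanned 1.34-fold. In bulk RNA, fewer cycling cells and less RNA per cell cannot be told apart in any of these values.

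**Figure D1:**
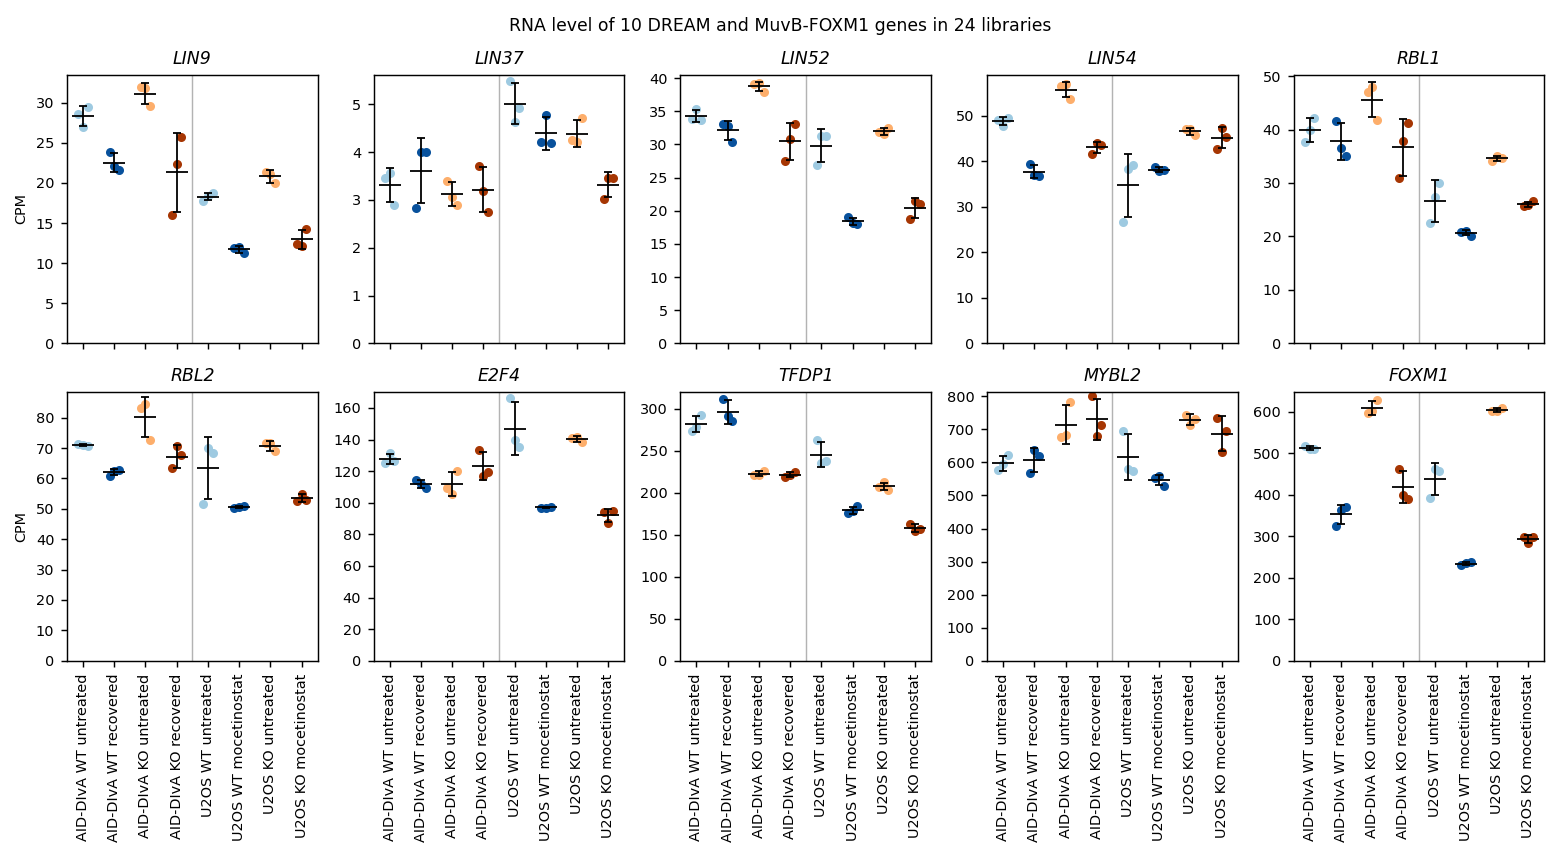
RNA level of each gene (y axis, CPM) in the 8 groups (x axis); points are libraries and the black bar and whiskers are the mean ± SD of 3 libraries, with AID-DIvA left and U2OS right of the grey line. FOXM1, LIN9, LIN52 and RBL2 lie lower in every treated library than in the untreated libraries of the same line and genotype. MYBL2 overlaps between treated and untreated libraries everywhere but in WT U2OS.

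The first question was how each genotype responded to mocetinostat. Log2 fold changes are given ± SE with the adjusted p of edgeR's quasi-likelihood test over all genes tested, and a gene is called at an adjusted p below 0.05. FOXM1 and LIN9 fell in all 4 comparisons, MYBL2 passed in none, and no member rose in any. In WT AID-DIvA cells after recovery, 5 of the 10 members were called lower and 0 higher, where 23% of all genes tested were called lower and 23.9% higher. In recovered KO AID-DIvA cells 5 were called lower and 0 higher (19.9% and 20.2% of all genes). At the end of treatment, 6 members were called lower and 0 higher in WT U2OS (22.9% and 26% of all genes), and 8 lower and 0 higher in KO U2OS (34% and 35.8%). The count of 0 higher also held in edgeR at an unadjusted p below 0.05 and by DESeq2. The median log2 fold change of the members was -0.13, -0.28, -0.40 and -0.40 in this order, against medians over all genes between -0.02 and 0.01.

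These counts moved with single libraries, and the share of all genes called without a library is not given. Without WT AID-DIvA recovered replicate 1, 8 members were called in that comparison, with MYBL2 (0.08, adjusted p = 0.0274) and LIN37 (0.29, adjusted p = 0.0296) then higher. Without KO AID-DIvA untreated replicate 1 or replicate 2, 3 members were called instead of 5. Only FOXM1 in KO U2OS was called beyond a log2 fold change of 1.

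**Figure D2:**
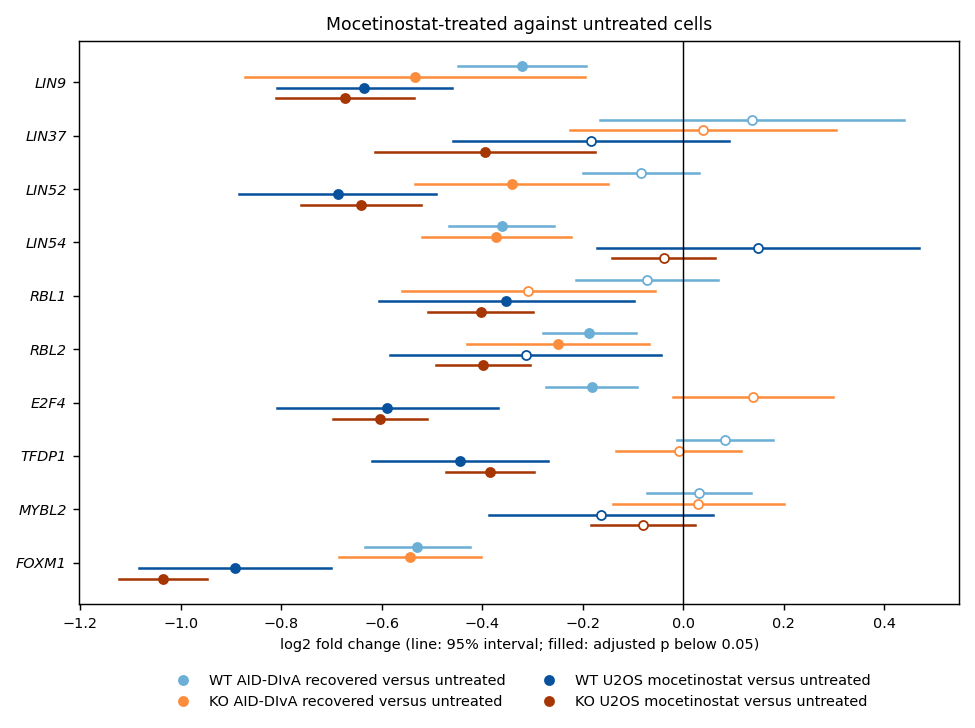
Log2 fold change of each gene (x axis) in treated against untreated cells in the 4 comparisons, with 95% intervals; filled points passed an adjusted p below 0.05. FOXM1 lies lowest, between -0.53 and -1.03, MYBL2 lies between -0.16 and 0.03, and LIN54 is called after recovery only while TFDP1 is called at the end of treatment only.

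Among the MuvB subunits, LIN9, the scaffold of the core (chr1:226418850-226497570, GRCh37), fell throughout. In WT AID-DIvA cells it was 28.6, 26.96 and 29.5 CPM untreated and 23.9, 22.2 and 21.6 CPM after recovery, a log2 fold change of -0.32 ± 0.06 (adjusted p = 5.72e-04). In KO AID-DIvA cells it went from 31.9, 31.9 and 29.6 CPM to 15.97, 22.3 and 25.7 CPM, or -0.53 ± 0.15 (adjusted p = 0.0188). The recovered KO libraries thus ranged widely, with replicate 1 the lowest, and the call was lost without any 1 of the 3 KO untreated libraries (adjusted p = 0.0551, 0.0821 and 0.0638).

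In U2OS, where replicates lay closer together, LIN9 went from 17.8, 18.4 and 18.7 CPM to 11.8, 12.03 and 11.2 CPM in WT cells (-0.63 ± 0.07, adjusted p = 2.98e-04) and from 21.4, 21.1 and 19.9 CPM to 12.4, 12.2 and 14.3 CPM in KO cells (-0.67 ± 0.07, adjusted p = 5.02e-09). Treated and untreated libraries did not overlap in any of the 4 comparisons. A share of the LIN9 fragments lay on the strand opposite to the gene, 27.3% ± 2.76 in treated and 13.9% ± 0.504 in untreated KO U2OS cells (SD, n = 3). With only fragments from the gene's own strand, the fall in KO U2OS was larger, -0.92 in place of -0.67.

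LIN52, the subunit that joins MuvB to the pocket proteins, showed its largest changes at the end of treatment. WT U2OS cells had 26.9, 31.3 and 31.2 CPM untreated and 19.04, 18.1 and 17.95 CPM treated (-0.69 ± 0.08, adjusted p = 3.59e-04). KO U2OS cells had 31.8, 31.5 and 32.5 CPM and 18.8, 21.5 and 20.9 CPM (-0.64 ± 0.06, adjusted p = 9.39e-10). Every treated U2OS library was below every untreated one. After recovery the level was 39.1, 39.2 and 37.9 CPM untreated and 27.5, 30.8 and 33.1 CPM treated in KO cells (-0.34 ± 0.09, adjusted p = 0.0109). In WT cells it was 33.8, 35.3 and 33.7 CPM and 33.1, 32.8 and 30.4 CPM, which did not pass (log2 fold change -0.08, 95% interval -0.20 to 0.03, adjusted p = 0.216). Treated and untreated libraries did not overlap in either genotype after recovery. The gene starts 303 bases from ALDH6A1 on the opposite strand, an enzyme of valine breakdown, which fell by 0.80 in WT and 1.02 in KO U2OS cells on the log2 scale (adjusted p = 3.35e-04 and 4.36e-11). After recovery ALDH6A1 fell as well, with -0.21 ± 0.06 (adjusted p = 0.0128) in WT cells, where LIN52 did not pass, and -0.50 ± 0.09 (adjusted p = 0.00194) in KO cells.

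LIN54, the DNA-binding subunit, had the opposite timing. It went from 48.97, 47.8 and 49.5 CPM to 39.4, 37.02 and 36.7 CPM in WT AID-DIvA (-0.36 ± 0.05, adjusted p = 4.23e-05) and from 56.4, 57.01 and 53.7 CPM to 41.6, 43.9 and 43.4 CPM in KO AID-DIvA (-0.37 ± 0.07, adjusted p = 0.00174), without overlap. In U2OS the groups overlapped. WT cells had 26.7, 38.2 and 39.1 CPM untreated and 38.7, 37.8 and 37.98 CPM treated, with a log2 fold change of 0.15 and a 95% interval of -0.17 to 0.47. The low value among the untreated libraries is replicate 1, the one that stood apart. In KO U2OS the level was 47.00, 47.1 and 45.7 CPM and 42.8, 47.3 and 45.4 CPM (log2 fold change -0.04, interval -0.14 to 0.06).

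LIN37, a subunit needed for repression by DREAM, had the lowest measured level of the members, with group means from 3.11 to 5.01 CPM. Only KO U2OS passed, from 4.25, 4.20 and 4.71 CPM to 3.03, 3.47 and 3.47 CPM (-0.40 ± 0.11, adjusted p = 0.00205), and these libraries did not overlap. In WT U2OS the log2 fold change was -0.18 with an interval of -0.46 to 0.09, and after recovery the intervals were -0.16 to 0.44 in WT and -0.23 to 0.30 in KO cells. LIN37 overlaps 2 other annotated genes, with 6159 bases, its whole span, on its own strand and 5055 on the opposite strand. LIN37 fragments counted without regard to strand were fewer than those on its own strand in all groups. Own-strand counts do not separate LIN37 from the gene on the same strand. The effect on the level of LIN37 was not tested.

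The pocket proteins were lower in some comparisons of each stage. RBL2 (p130), the pocket protein of resting cells, was 71.3, 71.03 and 70.8 CPM in untreated and 60.95, 62.5 and 62.6 CPM in recovered WT AID-DIvA cells (-0.19 ± 0.04, adjusted p = 0.00278). In KO AID-DIvA it was 83.2, 84.5 and 72.5 CPM and 63.3, 70.6 and 67.7 CPM (-0.25 ± 0.08, adjusted p = 0.0332). Both pairs of groups were apart, but the WT call was lost with all 24 libraries in one fit (-0.20, adjusted p = 0.0640). The KO call was lost without KO untreated replicate 1 or 2 or KO recovered replicate 3 (adjusted p = 0.135, 0.118 and 0.0604). KO U2OS went from 71.6, 71.7 and 68.9 CPM to 52.6, 54.9 and 52.9 CPM (-0.40 ± 0.05, adjusted p = 4.87e-08). WT U2OS, with 51.7, 70.00 and 68.5 CPM untreated and 50.3, 50.5 and 51.1 CPM treated, missed the threshold (-0.31 ± 0.12, adjusted p = 0.0566). It was called by DESeq2, with no filter on low counts, with one fit of 24 libraries and with DESeq2's size factors in edgeR (adjusted p from 0.00112 to 0.0418). Without WT U2OS untreated replicate 1 the log2 fold change was -0.44 (adjusted p = 5.65e-14).

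RBL1 (p107), which is itself made mainly in cycling cells, went from 34.1, 35.1 and 34.6 CPM to 25.7, 25.9 and 26.6 CPM in KO U2OS (-0.40 ± 0.05, adjusted p = 2.08e-07). In WT U2OS it went from 22.5, 27.4 and 30.03 CPM to 20.9, 21.1 and 20.1 CPM (-0.35 ± 0.11, adjusted p = 0.0294), a call that was lost without any 1 of the other 5 libraries (adjusted p from 0.0754 to 0.109), WT untreated replicate 1 excepted. After recovery it did not pass in either genotype, though in KO cells the call depended on the processing. WT AID-DIvA had 37.7, 39.96 and 42.2 CPM and 41.7, 36.6 and 35.04 CPM, which overlapped (log2 fold change -0.07, interval -0.21 to 0.07; without WT recovered replicate 1, -0.15 and adjusted p = 0.00763). KO AID-DIvA had 47.02, 47.9 and 41.8 CPM and 30.9, 37.8 and 41.2 CPM, which did not overlap (-0.31 ± 0.11, adjusted p = 0.0525). It was called lower by DESeq2 (adjusted p = 0.0322), with DESeq2's size factors in edgeR (0.0472), with no filter on low counts (0.00273), with all 24 libraries in one fit (0.00984) and with reverse-strand counts (0.0465). Without KO recovered replicate 1 that value was -0.18 (adjusted p = 0.0460), and without replicate 3 it was -0.39 (adjusted p = 0.0176).

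E2F4 and its dimer partner TFDP1 fell at the end of treatment. E2F4, the repressive E2F of DREAM, went from 166, 139 and 135 CPM to 96.8, 96.9 and 97.5 CPM in WT U2OS (-0.59 ± 0.09, adjusted p = 0.00152) and from 141, 142 and 138 CPM to 94.05, 86.9 and 94.9 CPM in KO U2OS (-0.60 ± 0.05, adjusted p = 4.46e-11). After recovery WT cells had 125, 131 and 126 CPM untreated and 114, 112 and 109 CPM treated (-0.18 ± 0.04, adjusted p = 0.00291). KO cells had 109, 105 and 120.2 CPM and 133, 117 and 119 CPM, which overlapped (0.14 ± 0.07, adjusted p = 0.146); without KO untreated replicate 3 the value was 0.20 (adjusted p = 0.0405), a call in the higher direction.

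TFDP1 (DP1), a dimer partner with which E2Fs of this kind bind DNA, went from 262, 236 and 238 CPM to 176, 178 and 184 CPM in WT U2OS (-0.44 ± 0.08, adjusted p = 0.00189). In KO U2OS it went from 207, 212 and 203 CPM to 163, 155 and 157 CPM (-0.38 ± 0.04, adjusted p = 3.13e-08). In recovered cells the groups overlapped, with 274, 278 and 293 CPM against 312, 292 and 285 CPM in WT and 221, 221 and 226 CPM against 218, 222 and 224 CPM in KO cells. The intervals of the log2 fold change were -0.01 to 0.18 and -0.13 to 0.12.

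Of the activators, FOXM1, the forkhead factor of G2 and mitosis (chr12:2966847-2986206, GRCh37), changed most. WT AID-DIvA cells had 517, 509 and 509 CPM untreated and 325, 362 and 369.6 CPM after recovery (-0.53 ± 0.05, adjusted p = 1.31e-06). KO AID-DIvA cells had 597, 601 and 628 CPM and 462, 401 and 391 CPM (-0.54 ± 0.06, adjusted p = 1.28e-04). Every recovered library was below every untreated one of its genotype. WT U2OS went from 393, 463 and 456 CPM to 229.9, 235 and 237 CPM (-0.89 ± 0.08, adjusted p = 8.55e-05), and KO U2OS from 602, 601 and 609 CPM to 299, 283 and 299 CPM (-1.03 ± 0.04, adjusted p = 8.52e-16), to 0.488 of the untreated level. No treated library reached an untreated one of its line and genotype.

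Over all groups FOXM1 was highest in untreated KO cells of both lines, 609 ± 16.9 CPM in AID-DIvA and 604 ± 3.94 in U2OS, which overlapped. It was lowest in treated WT U2OS, 234 ± 3.61 CPM, below treated KO U2OS, 294 ± 9.26, without overlap. FOXM1 shares 783 bases with RHNO1, a checkpoint gene, and 2111 bases with ITFG2, both read from the opposite strand. FOXM1 fragments counted without regard to strand were fewer than those on its own strand in all groups. Which neighbour this came from was not tested. On its own strand FOXM1 had log2 fold changes of -0.53, -0.56, -0.95 and -1.03 in the same order. RHNO1 fell too, with log2 fold changes of -0.31, -0.45, -0.95 and -0.72. TULP3, a gene of primary cilia that starts 183 bases away on the opposite strand, fell in AID-DIvA (-0.25 and -0.30) and rose in KO U2OS (0.18 ± 0.04, adjusted p = 9.20e-04).

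MYBL2 (B-MYB, chr20:42295754-42345136, GRCh37), the S phase partner of MuvB, stood in contrast to FOXM1. It was 576, 595 and 622 CPM untreated and 567, 637 and 618 CPM recovered in WT AID-DIvA, and 678, 683 and 784 CPM and 799.8, 678 and 714 CPM in KO AID-DIvA. The log2 fold changes were 0.03 (interval -0.07 to 0.14) and 0.03 (interval -0.14 to 0.20). In U2OS it was 696, 581 and 573 CPM untreated and 552, 560.2 and 530.1 CPM treated in WT (-0.16, interval -0.39 to 0.06), and 744, 713 and 732 CPM and 736, 631 and 695 CPM in KO cells (-0.08, interval -0.18 to 0.02). These intervals leave room for small changes and lie above the FOXM1 estimate of the same comparison. Without KO U2OS treated replicate 1 the last value was -0.13 (adjusted p = 0.0122). In order of level, the 4 KO groups came before the 4 WT groups, from 731 ± 62.4 to 687 ± 53.00 CPM against 617 ± 68.9 to 547 ± 15.5, with overlap between most neighbours.

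The target genes of these complexes were read from lists. Of 27 late cell cycle genes bound by MuvB with B-MYB or FOXM1, all 27 fell after recovery in WT and all 27 in KO AID-DIvA cells, with median log2 fold changes of -0.69 and -0.97, where 23% and 19.9% of all genes fell. At the end of treatment 17 fell in WT and 21 in KO U2OS, where 3 rose, with medians of -0.42 and -0.35. Of all genes, 22.9% fell in WT U2OS, and 34% fell and 35.8% rose in KO U2OS. Without WT U2OS untreated replicate 1, 21 fell and 2 rose in WT cells. KIF20A, a mitotic kinesin, fell most after recovery, with log2 fold changes of -1.23 in WT and -1.39 in KO cells. PLK4, the kinase of centriole duplication, fell most in WT U2OS (-0.82) and CCNA2, cyclin A, in KO U2OS (-0.82). CENPE, a kinetochore motor, rose there (0.49 ± 0.05, adjusted p = 4.70e-09).

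Of 24 early targets of E2F and DREAM, 22 fell in WT and 23 in KO U2OS at the end of treatment and 0 rose, also at an unadjusted p below 0.05 and by DESeq2, with medians of -0.67 and -0.57, where 22.9% and 34% of all genes fell. Without WT U2OS untreated replicate 1, 23 fell in WT cells. After recovery 17 rose and 6 fell in WT AID-DIvA, and 12 rose and 3 fell in KO AID-DIvA, with medians of 0.23 and 0.17. Of all genes 23.9% rose and 23% fell in WT, and 20.2% rose and 19.9% fell in KO AID-DIvA cells, so the share of early genes that fell in WT cells was near that of all genes. Without WT untreated replicate 3, or with all 24 libraries in one fit, 3 fell in WT cells. Without KO recovered replicate 2, KO untreated replicate 1 or KO untreated replicate 2, 6, 7 and 7 rose in KO cells. MCM5, a subunit of the replicative helicase, fell most in U2OS (-1.61 and -1.67). MCM3, another subunit, rose most after recovery (0.38 and 0.40), while RRM2, a subunit of ribonucleotide reductase, fell most there (-0.81 and -0.98). In the test of the difference between the stages, 21 early genes were called positive and 0 negative in WT cells (1 negative at an unadjusted p below 0.05 and 0 by DESeq2), and 20 positive and 1 negative in KO cells. Of the late genes, 1 was positive and 13 negative in WT cells, and 0 positive, also at an unadjusted p below 0.05 and by DESeq2, and 23 negative in KO cells. Of all genes, 20.5% were positive and 21.7% negative in WT, and 24.8% and 27.7% in KO cells. Without WT U2OS untreated replicate 1, the early genes counted 22 positive and 1 negative and the late genes 2 positive and 19 negative in WT cells. The late genes also counted 2 positive without WT U2OS untreated replicate 2 or 3.

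**Figure D3:**
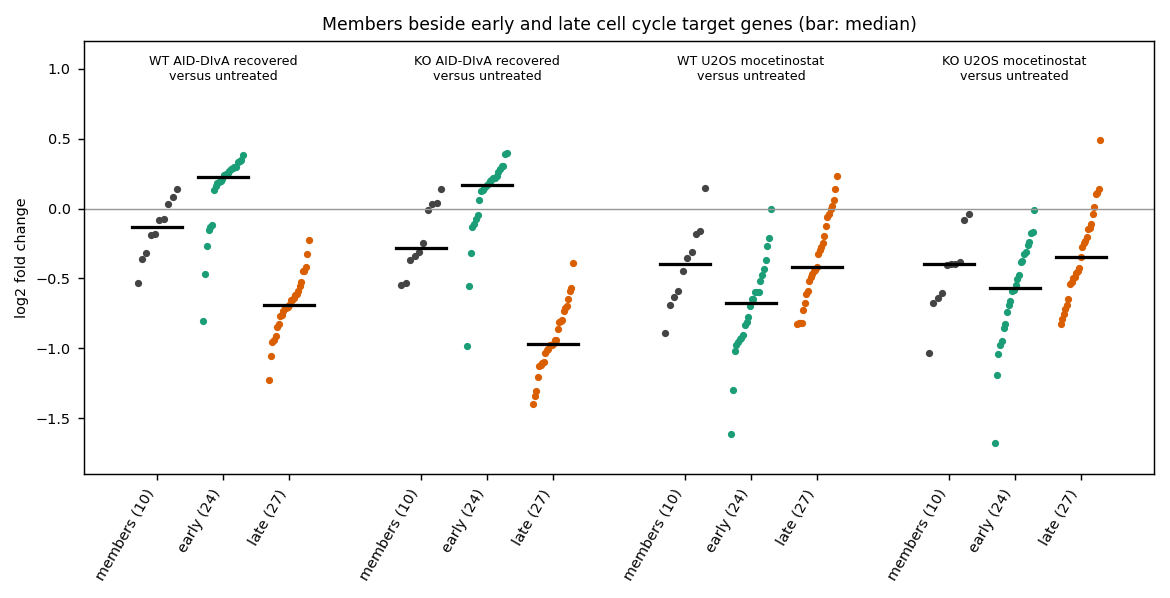
Log2 fold change (y axis) of the 10 members, the 24 early and the 27 late target genes in the 4 treatment comparisons; points are genes and bars are medians. The late genes lie below 0 after recovery, with medians of -0.69 and -0.97, and the early genes lie at or below 0 in U2OS, with medians of -0.67 and -0.57.

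Of 16 partners and upstream regulators of DREAM, 4 rose and 7 fell in WT and 4 rose and 5 fell in KO AID-DIvA cells, with medians of -0.09 and -0.08. In KO AID-DIvA cells 2 rose without KO recovered replicate 2, KO untreated replicate 1 or KO untreated replicate 2. In U2OS 3 rose and 8 fell in WT, and 4 rose and 11 fell in KO cells, with medians of -0.23 and -0.27. Without WT U2OS untreated replicate 1, 3 rose and 11 fell in WT U2OS. Of all genes, 23.9% rose and 23% fell in WT AID-DIvA, 20.2% and 19.9% in KO AID-DIvA, 26% and 22.9% in WT U2OS, and 35.8% and 34% in KO U2OS, so the shares of this list that rose were near or below those of all genes. CDKN1A (p21) rose most in each comparison, by 1.21, 0.94, 0.92 and 0.95. CDKN1B (p27), the related CDK inhibitor, fell most in 3 of them (-0.85, -1.10 and, in KO U2OS, -1.01).

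The response after recovery was set against the response at the end of treatment within each genotype, as the difference between their log2 fold changes. In WT cells 5 members were called with a positive difference, where 20.5% of all genes were, and 1 with a negative one (21.7% of all genes). In KO cells 5 were positive and 1 negative (24.8% and 27.7%). A positive difference means that the gene stood higher, relative to untreated cells, after recovery. FOXM1 differed by 0.36 ± 0.10 (adjusted p = 0.00930) in WT and 0.49 ± 0.08 (adjusted p = 6.43e-05) in KO cells. LIN52, E2F4 and TFDP1 were positive in both genotypes as well, E2F4 with 0.40 ± 0.11 (adjusted p = 0.00853) and 0.74 ± 0.09 (adjusted p = 1.19e-06). LIN54 was the negative member in both, with -0.52 ± 0.15 (adjusted p = 0.0124) and -0.34 ± 0.08 (adjusted p = 0.00151). LIN9 passed in WT cells (0.31 ± 0.09, adjusted p = 0.0177) and LIN37 in KO cells (0.42 ± 0.16, adjusted p = 0.0344), but LIN9 lost its call without WT AID-DIvA untreated replicate 2 or WT U2OS treated replicate 3 (adjusted p = 0.0523 and 0.0524), with no filter on low counts (0.135) and with all 24 libraries in one fit (0.0799). LIN37 lost it with all 24 libraries in one fit (adjusted p = 0.0555) and without KO AID-DIvA recovered replicate 1, KO AID-DIvA untreated replicate 2 or 3, KO U2OS untreated replicate 3 or KO U2OS treated replicate 1 (adjusted p from 0.0606 to 0.0825). Without the last of these, LIN52 in KO cells was at 0.24 (adjusted p = 0.0599). Calls were also gained. RBL1 and RBL2 were at 0.27 and 0.12 in WT cells (adjusted p = 0.120 and 0.471), and without WT U2OS untreated replicate 1 both were called positive, at 0.38 (adjusted p = 0.00129) and 0.25 (adjusted p = 0.000998), which made 8 members called in place of 6. Without WT AID-DIvA recovered replicate 1 LIN37 was called in WT cells (0.47, adjusted p = 0.0453). Without KO AID-DIvA recovered replicate 1 LIN9 (0.30, adjusted p = 0.0143), RBL1 (0.20, adjusted p = 0.0433) and RBL2 (0.20, adjusted p = 0.0408) were called in KO cells. The difference joins a change of stage with a change of line.

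The next question was whether the members differed between genotypes before any drug. In AID-DIvA 6 members were called higher in KO than in WT cells, where 18.6% of all genes were, and 2 lower (18.1% of all genes). The log2 difference, KO minus WT, was 0.24 ± 0.06 (adjusted p = 0.00426) for MYBL2 and 0.23 ± 0.04 (adjusted p = 4.63e-04) for FOXM1. For LIN52, LIN54, RBL1 and RBL2 it was 0.16, 0.17, 0.17 and 0.15. Both genes of the E2F4 dimer were lower, with -0.21 ± 0.05 (adjusted p = 0.00475) for E2F4 and -0.36 ± 0.04 (adjusted p = 4.76e-06) for TFDP1. KO and WT libraries overlapped for LIN37 and RBL1 and were apart for the other members. How many of all genes were apart was not counted. Without WT untreated replicate 1 or replicate 2, 5 members were called, and the share of all genes called then is not given. RBL2 lost its call without any 1 of 5 libraries (adjusted p from 0.0915 to 0.121) and RBL1 without any 1 of 4 (0.0860 to 0.158). LIN52 lost its call without WT untreated replicate 1 or 3 (adjusted p = 0.0726 and 0.0834) and LIN54 without WT untreated replicate 2 (adjusted p = 0.0587), while LIN9 was called without KO untreated replicate 3 (0.13, adjusted p = 0.0213). With all 24 libraries in one fit, 4 were called, and LIN52, LIN54, RBL1 and RBL2 lost their call.

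In U2OS 1 member was called higher in untreated KO cells (6.56% of all genes) and 0 lower (8.63% of all genes). The 1 was FOXM1 (0.46 ± 0.08, adjusted p = 0.00977). At an unadjusted p below 0.05 edgeR gave 5 higher and 1 lower, and DESeq2 called 3 higher and 1 lower. The count depended on the library that stood apart. The shares above are from edgeR at an adjusted p with every library. No share of all genes is given for the other counts here. Without WT U2OS untreated replicate 1, 6 members were called: FOXM1, MYBL2 (0.34, adjusted p = 9.08e-11), LIN54 (0.27, adjusted p = 2.87e-06), RBL1 (0.27, adjusted p = 2.09e-05) and LIN9 (0.17, adjusted p = 0.0179) higher and TFDP1 (-0.19, adjusted p = 1.40e-05) lower. Without WT untreated replicate 3, 2 were called, and without any 1 of the KO untreated libraries 0 were, with FOXM1 between an adjusted p of 0.0566 and 0.0594. The estimates of FOXM1 and MYBL2 were positive and that of TFDP1 negative in both lines.

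**Figure D4:**
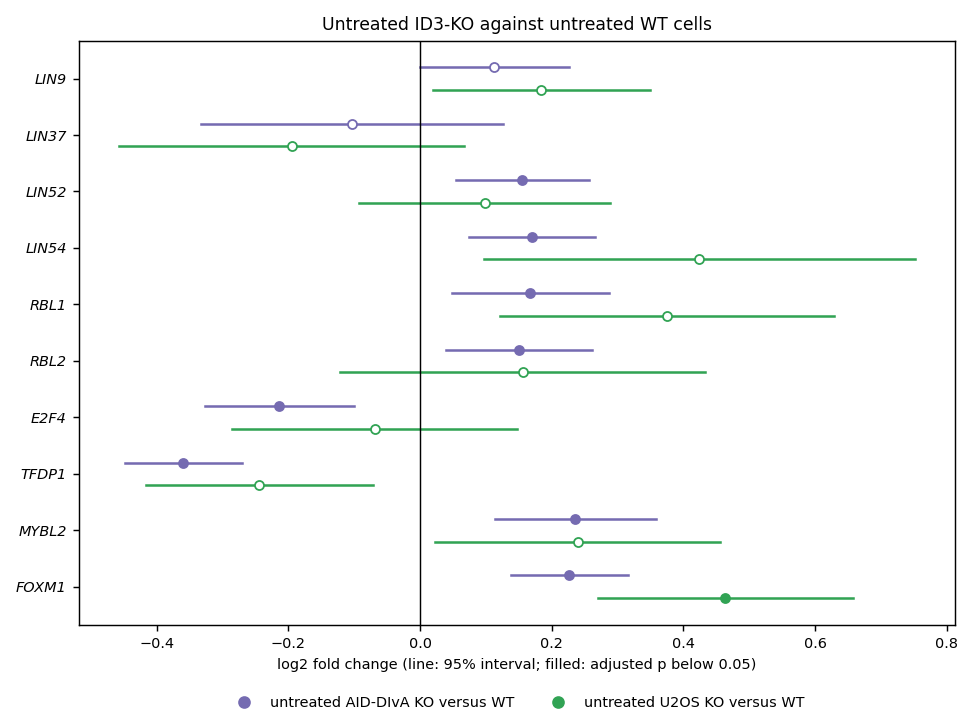
Log2 fold change (x axis) of each gene in untreated KO against untreated WT cells of both lines, with 95% intervals; filled points passed an adjusted p below 0.05. FOXM1 is filled in both lines at 0.23 and 0.46, TFDP1 lies at -0.36 and -0.24, and the U2OS intervals are wider.

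Whether ID3 status changed the response to the drug was tested as the interaction of genotype and treatment. In AID-DIvA 0 members were called by edgeR, where 0.762% of all genes were called positive and 0.451% negative. At an unadjusted p below 0.05 there were 2, E2F4 (0.33 ± 0.08, adjusted p = 0.0703) and LIN52 (-0.25 ± 0.10, adjusted p = 0.330), and DESeq2 called E2F4. E2F4 was also called without KO AID-DIvA untreated replicate 3 (0.39, adjusted p = 0.0166). In U2OS 0 members were called, also 0 at an unadjusted p below 0.05 and 0 by DESeq2 (1.1% and 1.06% of all genes). For FOXM1 the interval of the interaction was -0.18 to 0.17 in AID-DIvA and -0.33 to 0.05 in U2OS. Differences between the genotypes within these intervals were not excluded. Of the 27 late target genes, edgeR called 0 positive and 1 negative in AID-DIvA, and DESeq2 called 0 and 4. At an unadjusted p below 0.05 edgeR gave 0 positive and 18 negative. No share of all genes at an unadjusted p or by DESeq2 is given beside these counts. The 27 genes are targets of the same complexes and were not tested as a set. All 27 estimates were negative there, with a median of -0.23 against -0.02 over all genes. In U2OS 0 late genes were called, with 16 estimates positive and 11 negative. Of the 24 early genes edgeR called 0 in either line.

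For 3 members the genes with the most similar pattern were sought among 15595 genes with a mean of at least 1 CPM, by the root mean square difference of log2 CPM over the 24 libraries after centring each gene on its mean. For FOXM1 they were VANGL2 (0.103), RHNO1 (0.135), FANCC (0.137), HMBOX1 (0.139) and ARSB (0.145), where FOXM1 itself varied by 0.463 about its mean and the median gene differed from it by 0.513. For MYBL2 they were PPP1R9B (0.0767), RUVBL2 (0.0904), AGPAT1 (0.0926), TYRO3 (0.0938) and BCL7B (0.0965), against 0.168 and 0.344. For RBL2 they were GPR107 (0.0623), ZCCHC11 (0.0667), WHSC1L1 (0.0777), GANC (0.0824) and CASP2 (0.0832), against 0.221 and 0.347. The 24 libraries share lines, stages and replicates, and this is a description without a test.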

How the data were processed

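Stranded total RNA libraries were sequenced in pairs. Alignment by the authors used STAR and build hg19/GRCh37, and they deposited raw fragment counts per gene from featureCounts, without pooling, for either strand and for each strand. The gene IDs carry other version numbers than the annotation v.29 lift 37 that the methods name. They also deposited TPM, of which the column with the same sum in each library was used for levels per length.

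Either-strand counts were tested in R 4.3.3 with edgeR 4.0.16 (TMM, filterByExpr, robust quasi-likelihood test, 2-sided, Benjamini-Hochberg over all genes tested). Each treatment and genotype comparison used its own 6 libraries, and interactions and response differences 12. Intervals are 95% and concern the estimated log2 fold change, not the range of single libraries. They and the SE were computed from the statistic of the quasi-likelihood test and rest on the spread between replicates. The script was also run on simulated counts with the same spread for every gene and few changed genes. That setting has no outlying library and differs from these data, so it checks the code only.

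The members and gene lists were chosen with earlier results of these data known. Genes named besides the members were the most risen and most fallen called genes of each list, the 5 most similar genes of 3 members, ID3 and main neighbours on the opposite strand. A gene that the rule names is not reported here. Alternatives were DESeq2 1.42.0, DESeq2's size factors, other count filters, all 24 libraries in one fit, a replicate block, fold thresholds, reverse-strand counts and each library left out. RefSeq promoter windows are of another build than the counts and were used for their letters only.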

Additional observations from a re-analysis of the deposited data

Results flagged for a closer look

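Several members responded differently after recovery and at the end of treatment, by a test of the difference between the log2 fold changes. In WT cells the differences were 0.36 for FOXM1, 0.31 for LIN9, 0.60 for LIN52, 0.40 for E2F4, 0.52 for TFDP1 and -0.52 for LIN54. In KO cells they were 0.49 for FOXM1, 0.42 for LIN37, 0.29 for LIN52, 0.74 for E2F4, 0.37 for TFDP1 and -0.34 for LIN54. LIN54 was the only member of either set with a negative difference. Stage and line label cannot be told apart in these values. The WT differences include WT U2OS untreated replicate 1, the library that stood apart. The calls of LIN9 in WT cells and of LIN37 and LIN52 in KO cells were each lost under some of the alternatives given above.

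LIN9 had fragments on the strand opposite to the gene, which no comparison used on its own. In KO U2OS cells their share was at least 25.3% in every treated library and at most 14.5% in every untreated one. In WT U2OS it was 22.3% to 25.9% treated and 15.9% to 24.7% untreated, which overlapped.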

How the results depend on the processing

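Of 700 member fold changes under the alternatives other than a fold test or a left-out library, 659 kept direction and side of the threshold, 9 lost and 20 gained a call, and 12 without a call changed sign. No called member reversed. Of 984 counts of list genes in 1 direction over all alternatives, 857 stayed within 1.5 times the reported count. Tested against a fold of 1.5, 0 members were called in either AID-DIvA treatment comparison, 1 in WT and 1 in KO U2OS, 0 in untreated KO against WT cells of either line and 0 in both response differences. With a log2 fold change beyond 1 required, 1 was called in KO U2OS and 0 in each other comparison. In untreated AID-DIvA 4 were called with all 24 libraries in one fit. In untreated U2OS DESeq2 called 4, no filter on low counts 3, and one fit of 24 libraries 5. In the AID-DIvA interaction DESeq2 and no filter each called 1. The cause of these shifts was not tested. No share of all genes under an alternative, or with a library left out, is set beside these counts.

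With 1 library left out, members called ranged from 5 to 8 in WT and 3 to 6 in KO AID-DIvA, 5 to 7 in WT and 8 to 9 in KO U2OS, 5 to 9 in untreated AID-DIvA, 0 to 6 in untreated U2OS, 0 to 1 in the AID-DIvA and 0 to 0 in the U2OS interaction, and 5 to 8 in WT and 4 to 8 in KO response differences.

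Replicate numbers did not pair the samples: deviations of same-numbered libraries correlated between -0.123 and 0.115. With the replicate block the counts were 5, 4, 6 and 8 in the treatment comparisons, 8 and 1 in untreated cells, 0 and 0 in the interactions and 6 and 6 in the response differences. RBL2 in KO AID-DIvA lost its call (adjusted p = 0.0674), and in the same comparison 6 early genes rose in place of 12 and 2 partners in place of 4. Depth does not limit most members, but LIN37 rests on the fewest counts.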
